A study of Rattus norvegicus with 6 samples.

Results

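The genes described here encode the subunits of voltage-gated sodium and calcium channels of rat hippocampal neurons. They were chosen by gene symbol: sodium channel genes (Scn, a number, and the letter a or b) and calcium channel genes (Cacna1, Cacna2d, Cacnb and Cacng), without Cacng2, Cacng3 and Cacng8. The rule found 36 genes among the 17066 listed, of which 34 are described. The neurons were primary cultures of Sprague-Dawley rat hippocampus from embryonic day 18, infected with lentivirus at day 5 or 6 in vitro (DIV5 or 6) and lysed for RNA at DIV14. The 3 groups, with 2 libraries each, were EGFP alone as control, CCNY-WT-EGFP for overexpression of Cyclin Y (CCNY), and CCNY-shRNA-EGFP for its knockdown. All groups, the control included, carried EGFP from the lentiviral vector FUGW. Expression was given as FPKM, a fragment count scaled to the length of the transcript and to the size of the library, so that levels of different genes can be set side by side.

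Voltage-gated sodium channels carry the rising phase of the action potential. Each has a large pore-forming alpha subunit and smaller beta subunits that adjust gating, surface expression and cell adhesion. Voltage-gated calcium channels open on depolarization and let in the calcium that triggers transmitter release, dendritic calcium spikes and signaling to the nucleus. Their pore-forming alpha1 subunit is joined in L-, P/Q-, N- and R-type channels by a cytoplasmic beta subunit and by an extracellular alpha2delta subunit, both of which raise the number of channels at the membrane. Several gamma subunits named after calcium channels act mainly as partners of AMPA receptors.

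Ccny, the targeted gene, had an FPKM of 43.1 and 42.3 in the EGFP libraries, 108 and 109 with CCNY-WT and 5.98 and 6.19 with CCNY-shRNA, so the level followed the labels of all 6 libraries. The number of reads per library is unknown; the depth relative to EGFP replicate 1, read from the steps between low FPKM values, ranged from 0.818 to 1.33. The labels do not say whether the 2 libraries of a group came from separate cultures, so p-values measure only the spread between these libraries. All 10 neuron markers were detected, and their summed FPKM was 3819 and 3884 in the EGFP libraries, 3735 and 3727 with CCNY-WT and 3881 and 3809.5 with CCNY-shRNA. Astrocyte markers were also present, with a summed FPKM over 9 listed genes between 470.3 and 577, while all 10 microglia markers stayed below 1 FPKM throughout and Aif1 and Cx3cr1 were listed at 0. The cell type behind the RNA of a channel gene is therefore not known.

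Of the 34 channel genes described, 25 reached 1 FPKM in at least 2 libraries and entered the test, and 21 of them lay above an FPKM of 10 in every library. The highest levels were those of auxiliary subunits. Scn2b, a sodium channel beta subunit, led with 159 ± 7.48 FPKM in EGFP (SD, n = 2), followed by the beta subunit Scn3b with 119.9 ± 1.91 and Cacng7 with 113 ± 13.02. The EGFP libraries of Scn3b and Cacng7 overlapped, so the order of these genes was not resolved, while Scn2b lay above both. Among pore-forming genes, Scn2a (96.1 ± 5.01) was the highest, and Cacna1b (43.5 ± 0.456), Scn8a (40.3 ± 0.577) and Cacna1a (36.1 ± 2.43) came next, with EGFP libraries that did not overlap between neighbours in this order.

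**Figure D1:**
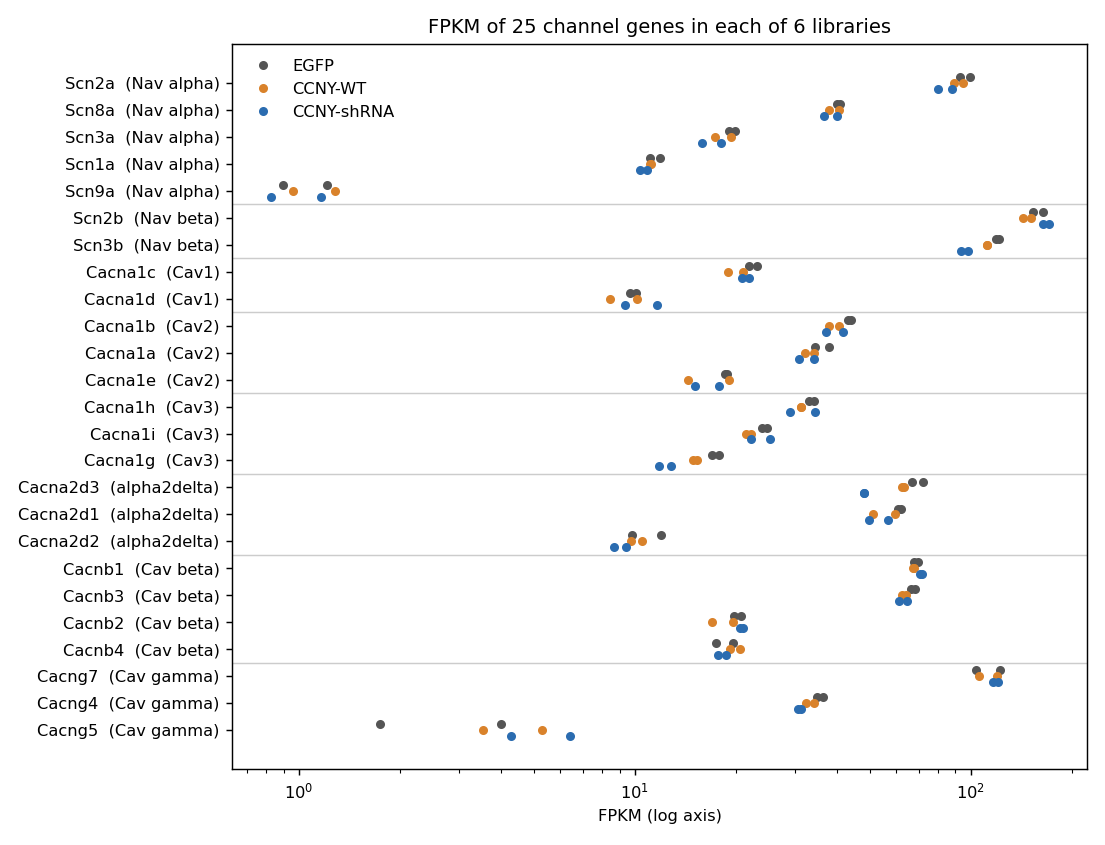
FPKM (x axis, logarithmic) of the 25 channel genes tested (y axis, grouped by subunit class), with 1 point for each of 2 libraries in EGFP, CCNY-WT and CCNY-shRNA. Scn2b is at the high end with 164 and 153 in EGFP, and Scn9a at the low end with 0.897 and 1.21, while the 6 points of most genes lie close together. Nav stands for sodium channels, Cav1 for L-type, Cav2 for P/Q-, N- and R-type and Cav3 for T-type calcium channels.

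The 9 genes that were not tested included channels known from other tissues. Scn4a of skeletal muscle ranged from 0.592 to 0.859 FPKM. Scn7a encodes Nax, a relative of the sodium channels that senses the sodium level rather than voltage, and ranged from 0.661 to 0.987. Scn10a and Scn11a, the sodium channels of pain-sensing neurons, reached at most 0.0199 and 0.143. Scn10a and Cacng1 were above 0 in CCNY-WT replicate 1 alone, and Cacna2d4 in EGFP replicate 1 alone. For a gene with a single value above 0, the smallest whole number that fits is always 1 fragment. The fragments of these genes were therefore not measured. The values of Cacna1f, the retinal L-type channel, fitted 5 fragments in all, and those of Scn11a 13, which are the smallest whole numbers that fit. Cacng6 was listed at 0 in EGFP replicate 1 and reached 1.04 in EGFP replicate 2. Scn4b ranged from 0.150 to 0.368. These 9 genes were left out of the test.

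In the knockdown, 2 channel genes fell and 0 rose. Cacna2d3, which encodes an alpha2delta subunit of calcium channels, and Scn3b, a sodium channel beta subunit, passed an adjusted p of 0.05 in limma's test over all 10188 genes tested. Over all genes tested, 0.579% were called lower and 0.167% higher in this comparison. Cacna1g, the pore-forming subunit of a T-type calcium channel, had a change nearly as large as that of Cacna2d3 but missed the threshold. At an unadjusted p under 0.05, 6 channel genes were lower and 1 higher in the 25 tested, against 9.36% and 9.2% of all genes tested. The median log2 change of the 25 was -0.098, beside 0 for all genes tested, and 19 of the 25 had a value below 0, against 49.8% of all genes tested. Without CCNY-shRNA replicate 2 this median was -0.063. Of the 25 genes, 20 were lower in CCNY-shRNA replicate 2 than in replicate 1 (median log2 difference -0.12), against 50.4% of all genes tested. The channel genes shifted together between these libraries, so the count of values below 0 is not one of independent genes. Both CCNY-shRNA libraries lay below both EGFP libraries for 14 of the 25 genes and above them for 2, against 24.5% and 23.9% of all genes tested. The channel genes and marker lists were chosen with earlier results of these data known. Setting their counts beside the shares of all genes, here and below, is therefore no test.

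In the overexpression, 0 channel genes passed limma's adjusted threshold, where 0.00982% of all genes tested passed. At an unadjusted p under 0.05, 0 were higher and 1, Cacna2d3, was lower, where 3.83% and 3% of all genes tested were higher and lower. The median log2 change of the 25 genes was -0.099, beside 0.0041 for all genes tested, and 21 of the 25 had a value below 0, against 48.6%. Without CCNY-WT replicate 2 this median was -0.049. In CCNY-WT, 17 of the 25 genes were lower in replicate 2 than in replicate 1 (median log2 difference -0.075), against 49.2% of all genes tested. In EGFP, 8 of the 25 were (median 0.057), against 49.6%. Both CCNY-WT libraries lay below both EGFP libraries for 14 of the 25 genes and above them for 0, against 19.2% and 20.3% of all genes tested. Both comparisons used the same EGFP libraries. In 21 of the 25 genes the log2 change lay within 0.3 of EGFP in both conditions, with standard errors over the 25 genes from 0.0526 to 0.396. The share of all genes tested that lay within 0.3 in both conditions was not counted. By the study's size criteria, without a test, Cacng5 alone passed 0.3 in CCNY-WT, and Cacna2d3, Cacna1g (both lower) and Cacng5 (higher) passed 0.33 in CCNY-shRNA. Among all listed genes, 2.8% passed upward and 2.31% downward in CCNY-WT, and 4.58% passed downward and 3.34% upward in CCNY-shRNA.

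**Figure D2:**
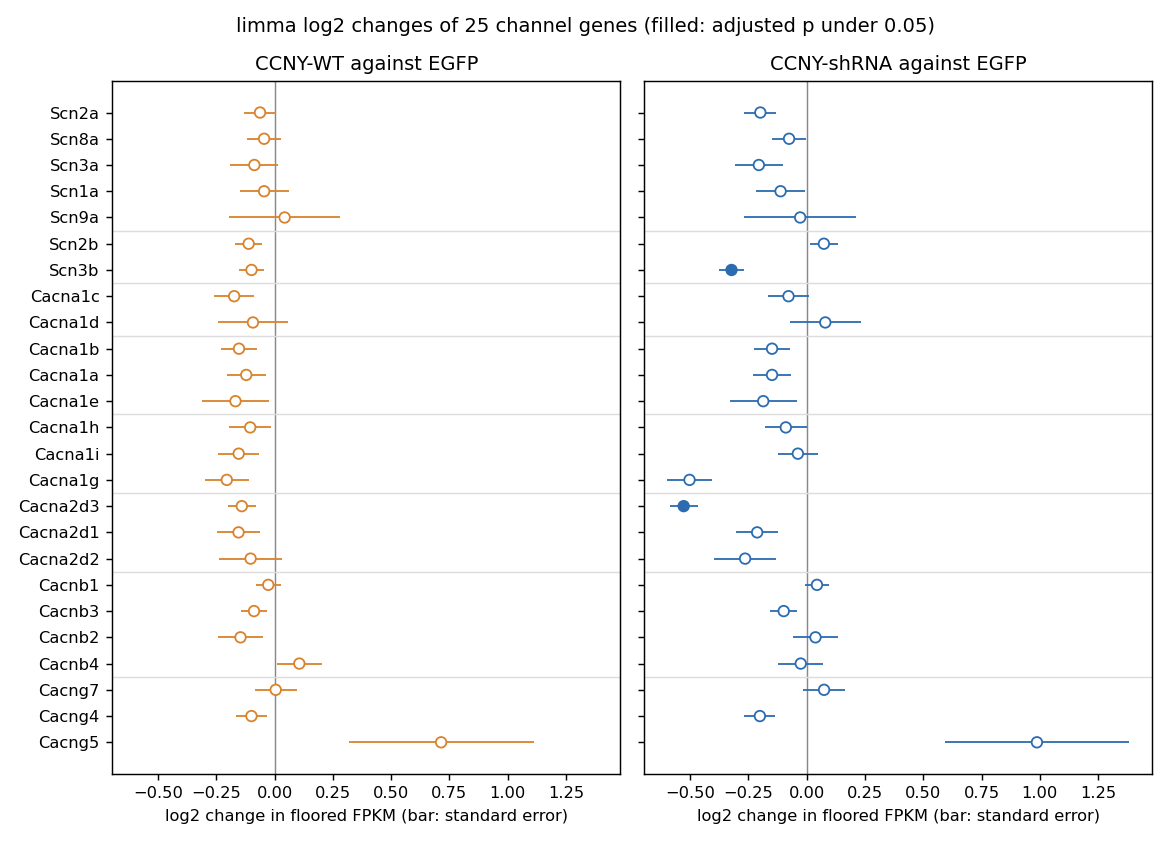
Log2 change in floored FPKM (x axis) of the 25 channel genes (y axis, grouped by subunit class) in CCNY-WT and in CCNY-shRNA against EGFP, each with its standard error from limma; filled points passed an adjusted p of 0.05. Only Cacna2d3 (-0.53) and Scn3b (-0.32) in CCNY-shRNA are filled, and Cacng5 (0.99 in CCNY-shRNA) has the widest bar.

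The summed markers of GABAergic interneurons and of the oligodendrocyte lineage were lowest in the CCNY-shRNA libraries, without a test of the sums. The summed FPKM of the 10 markers of GABAergic interneurons was 2498 and 2631 in the EGFP libraries, 2508 and 2569.5 with CCNY-WT and 2189 and 2383 with CCNY-shRNA, lower in both CCNY-shRNA libraries than in the other 4. The largest part of this sum was Sst, with 1256 and 1311 in the EGFP libraries, 1228 and 1239 with CCNY-WT and 1043 and 1158 with CCNY-shRNA. Sst itself did not pass in CCNY-shRNA (log2 change -0.22, limma adjusted p = 0.181). Of the 10 markers, 1 was at 0 in some libraries (Pvalb). Of the 9 tested, 1 was called lower in CCNY-shRNA, where 0.579% of all genes tested were. This was Gad2, which makes GABA (log2 change -0.41 with a standard error of 0.0494 and an adjusted p = 0.0226 in limma). Gad1 had a log2 change of -0.028 (standard error 0.0499). Of the 9, 8 had a value below 0, against 49.8% of all genes tested, and 1, Calb2, above (0.063). The summed FPKM of the astrocyte markers was 538 and 577 in the EGFP libraries, 572 and 565 with CCNY-WT and 470.3 and 542 with CCNY-shRNA, with CCNY-shRNA replicate 2 inside the range of EGFP and Gjb6 at 0 in 4 libraries. That of 10 markers of the oligodendrocyte lineage was 56.02 and 55.04 in the EGFP libraries, 57.7 and 52.9 with CCNY-WT and 49.5 and 47.5 with CCNY-shRNA, with Sox10 listed at 0 throughout. Of the 8 astrocyte and 6 oligodendrocyte markers tested, 0 passed limma's adjusted threshold in CCNY-shRNA, where 0.579% of all genes passed as lower and 0.167% as higher. Vascular and meningeal markers summed to 65.2 and 73.2 in the EGFP libraries, 75.3 and 75.7 with CCNY-WT and 63.9 and 66.98 with CCNY-shRNA, mostly from Lum and Dcn, with Cldn5 and Cdh5 listed at 0, and mitotic markers summed to at most 7.56. The part of these cell types in the values of Cacna2d3, Scn3b and Cacna1g was not tested. In RNA from a whole culture, fewer cells of a type and less RNA per cell cannot be told apart.

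The alpha2delta subunits are glycoproteins anchored outside the membrane that bring calcium channels to the cell surface and to synapses, and the gabapentinoid drugs bind the products of Cacna2d1 and Cacna2d2. The FPKM of Cacna2d3 was 66.7 and 71.99 in the EGFP libraries, 62.4 and 63.4 with CCNY-WT and 48.02 and 48.2 with CCNY-shRNA. Both CCNY-shRNA libraries lay below all 4 others, and the CCNY-WT libraries lay below EGFP by less. The share of all genes tested in this order was not counted, while all 4 libraries of the conditions lay below both EGFP libraries in 10.7%. The mean was 69.4 ± 3.71 in EGFP (SD, n = 2), against 62.9 ± 0.720 with CCNY-WT and 48.1 ± 0.116 with CCNY-shRNA. Cacna2d3 fell in CCNY-shRNA (log2 change -0.53 with a standard error of 0.0599 and an adjusted p = 0.0184 in limma), with rank 13 by p-value among the 10188 genes. In CCNY-WT its change did not pass (log2 change -0.14 with a standard error of 0.0599 and an adjusted p = 0.729 in limma) and was -0.086 without EGFP replicate 2. The call in CCNY-shRNA was lost without EGFP replicate 1, EGFP replicate 2 or CCNY-WT replicate 1. These fits leave 1 library in a group, and the log2 change in them was -0.58, -0.47 and -0.53. The call was also lost without the filter on low values (limma adjusted p = 0.112), without a trend in eBayes (0.143) and with only the 4 libraries compared (0.139). In these last 3 fits 2, 1 and 1 of all genes passed.

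The other alpha2delta genes had smaller changes. Cacna2d1 had 62.2 and 60.8 in the EGFP libraries, 59.5 and 51.2 with CCNY-WT and 56.7 and 49.6 with CCNY-shRNA, and did not pass in CCNY-shRNA (log2 change -0.21 with a standard error of 0.0911 and an adjusted p = 0.267 in limma). Its log2 change was -0.12 without CCNY-shRNA replicate 2 and -0.31 without replicate 1. Cacna2d2, at a lower level, had 9.83 and 11.97 in the EGFP libraries, 10.5 and 9.73 with CCNY-WT and 9.43 and 8.66 with CCNY-shRNA (log2 change in CCNY-shRNA -0.26, limma adjusted p = 0.338). For all 3 genes, both CCNY-shRNA libraries lay below both EGFP libraries, as did 24.5% of all genes tested. The summed FPKM of the 4 alpha2delta genes was 139 and 145 in the EGFP libraries, 132 and 124 with CCNY-WT and 114 and 106 with CCNY-shRNA. It thus amounted to 77.8% of the EGFP mean in CCNY-shRNA and 90.5% in CCNY-WT, the lowest share of the 8 classes with tested genes in CCNY-shRNA. The share of Cacna2d3 in this sum was 48.9 ± 1.17% (SD, n = 2) in EGFP, against 49.05 ± 2.74% with CCNY-WT and 43.7 ± 2.26% with CCNY-shRNA.

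The promoters of Cacna2d3, which passed the test, and of Cacna2d1, which did not, are shown to compare their upstream sequence. Each is the 250 bases before the start of transcription on the minus strand, from RefSeq on build GRCr8 (Cacna2d3 at chr16:4918900-4919149, Cacna2d1 at chr4:20330148-20330397), written 5′ to 3′, with GC boxes (GGGCGG on either strand) in capitals.
Cacna2d3: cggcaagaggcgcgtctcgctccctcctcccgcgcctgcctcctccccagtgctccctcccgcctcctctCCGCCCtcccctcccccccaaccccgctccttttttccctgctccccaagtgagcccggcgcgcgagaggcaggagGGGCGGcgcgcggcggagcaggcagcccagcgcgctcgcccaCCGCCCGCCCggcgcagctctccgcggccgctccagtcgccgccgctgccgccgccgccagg
Cacna2d1: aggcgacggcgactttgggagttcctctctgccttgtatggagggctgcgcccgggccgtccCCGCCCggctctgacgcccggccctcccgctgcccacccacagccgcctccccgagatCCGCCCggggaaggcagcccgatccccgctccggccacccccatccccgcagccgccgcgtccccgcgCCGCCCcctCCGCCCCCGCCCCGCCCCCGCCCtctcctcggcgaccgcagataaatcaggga
The Cacna2d3 sequence held 4 GC boxes and 34 CpG dinucleotides, and the Cacna2d1 sequence 7 and 32, counting matches that overlap each other. Of 33469 promoter entries, 30.5% held a GC box, and the median was 5 CpG dinucleotides. The 19 entries for 16 tested channel genes had a median of 30 CpG dinucleotides, and 11 of them held a GC box. These 19 are of genes that entered the test, while the 33469 entries were not limited in this way. The 2 sets are therefore not alike, and no comparison with promoters of all genes tested was made. A TATA box (TATAAA on either strand) was found in 0 of these 19 windows, against 12.9% of all entries, and a CCAAT box (CCAAT on either strand) in 2, against 34%. An E-box (CACGTG), a cAMP response element (TGACGTCA) and an NRF1 site were searched in the same way and found in 0 of the 19, against 5.59%, 1.59% and 0.762% of all entries. Such matches are a description of letters and not of bound factors.

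Scn3b, a sodium channel beta subunit that is noncovalently bound to the alpha subunit, had an FPKM of 119 and 121 in the EGFP libraries, 112 and 112 with CCNY-WT and 98.3 and 93.5 with CCNY-shRNA. The CCNY-shRNA libraries were the lowest, the EGFP libraries the highest, and no 2 groups overlapped. How many of all genes tested had this order was not counted. Scn3b fell in CCNY-shRNA (log2 change -0.32 with a standard error of 0.0526 and an adjusted p = 0.0456 in limma), while the change in CCNY-WT did not pass (log2 change -0.099 with a standard error of 0.0526 and an adjusted p = 0.772 in limma). This call was close to the threshold and was lost in 10 of 15 alternatives, among them each library left out in turn except CCNY-shRNA replicate 1. Fits without 1 library leave 1 library in a group, and the log2 change in them stayed between -0.36 and -0.29. After scaling to one upper quartile the adjusted p was 0.0579.

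Scn2b, linked to the alpha subunit by a disulfide bond, had 164 and 153 in the EGFP libraries, 151 and 143 with CCNY-WT and 170.5 and 164 with CCNY-shRNA, and its values were lowest in CCNY-WT. Its CCNY-shRNA and EGFP libraries overlapped, and the change in CCNY-shRNA did not pass (log2 change 0.074 with a standard error of 0.0588 and an adjusted p = 0.545 in limma), nor did that in CCNY-WT (log2 change -0.11 with a standard error of 0.0588 and an adjusted p = 0.772 in limma). Scn2b had a higher FPKM than Scn3b in every library.

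**Figure D3:**
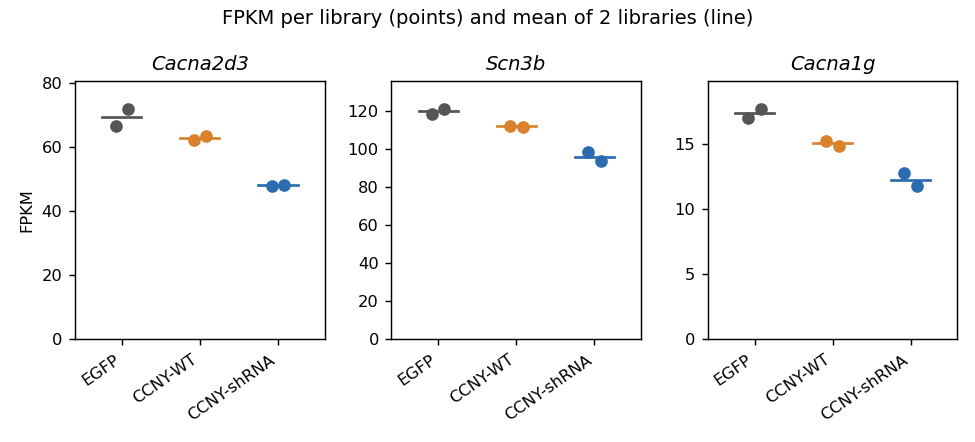
FPKM (y axis, from 0) of Cacna2d3, Scn3b and Cacna1g in EGFP, CCNY-WT and CCNY-shRNA; points are libraries and lines the mean of 2. For all 3 genes both CCNY-shRNA points lie below the other 4, at 48.02 and 48.2 for Cacna2d3. The share of all genes tested with this order was not counted.

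Among the 5 sodium channel alpha subunits tested, 0 passed limma's adjusted threshold in either condition, and 1, Scn2a, had an unadjusted p under 0.05, in CCNY-shRNA. The adjusted threshold was passed by 0.579% (lower) and 0.167% (higher) of all genes tested in CCNY-shRNA, and by 0.00982% in CCNY-WT. At the unadjusted threshold, 9.36% were lower and 9.2% higher in CCNY-shRNA, against 3% and 3.83% in CCNY-WT. Scn2a encodes the main alpha subunit of immature and excitatory axons and had an FPKM of 92.6 and 99.7 in the EGFP libraries, 94.7 and 89.4 with CCNY-WT and 87.8 and 79.9 with CCNY-shRNA. Both CCNY-shRNA libraries lay below both EGFP libraries, but the change did not pass (log2 change -0.20 with a standard error of 0.0692 and an adjusted p = 0.186 in limma) and was -0.13 without CCNY-shRNA replicate 2. Scn8a, the alpha subunit of the mature axon initial segment, had 39.9 and 40.7 in the EGFP libraries, 40.4 and 37.8 with CCNY-WT and 39.97 and 36.6 with CCNY-shRNA, with overlapping groups and a log2 change of -0.075 in CCNY-shRNA (standard error 0.0716). Scn3a, the alpha subunit of the embryonic brain, had 19.1 and 19.9 in the EGFP libraries, 17.4 and 19.4 with CCNY-WT and 18.1 and 15.8 with CCNY-shRNA, and the groups CCNY-WT and EGFP overlapped. Its change in CCNY-shRNA did not pass (log2 change -0.20 with a standard error of 0.103 and an adjusted p = 0.332 in limma). Scn1a, prominent in inhibitory interneurons, had 11.1 and 11.9 in the EGFP libraries, 11.1 and 11.2 with CCNY-WT and 10.9 and 10.4 with CCNY-shRNA. Its log2 change in CCNY-shRNA was -0.11 (standard error 0.105). Both CCNY-shRNA libraries lay below both EGFP libraries for Scn2a, Scn3a and Scn1a, as in 24.5% of all genes tested. Scn9a, known from sensory and sympathetic neurons, lay near the floor at 0.897 and 1.21 in the EGFP libraries, 1.28 and 0.961 with CCNY-WT and 1.16 and 0.827 with CCNY-shRNA. Scn2a made up 56.8 ± 0.568% (SD, n = 2) of the summed FPKM of the alpha subunits described in EGFP, against 56.6 ± 0.806% with CCNY-WT and 55.3 ± 0.00156% with CCNY-shRNA, and Scn8a 23.8 ± 0.664%, 24.03 ± 0.503% and 25.3 ± 0.126%. The sum was 164 and 174 in the EGFP libraries, 166 and 159.6 with CCNY-WT and 159 and 144 with CCNY-shRNA, so both CCNY-shRNA libraries lay below both EGFP libraries.

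The T-type alpha1 subunits open near the resting potential and support burst firing. Cacna1g had an FPKM of 17.02 and 17.7 in the EGFP libraries, 15.3 and 14.9 with CCNY-WT and 12.8 and 11.8 with CCNY-shRNA. Its CCNY-shRNA libraries were the lowest and its EGFP libraries the highest, and no 2 groups overlapped. How many of all genes tested had this order was not counted. The change in CCNY-shRNA (log2 change -0.50 with a standard error of 0.0950 and an adjusted p = 0.0632 in limma) missed the threshold, and over all 15 alternatives the adjusted p stayed between 0.0518 and 0.307. For the other T-type genes the CCNY-shRNA and EGFP libraries overlapped. Cacna1h had 32.9 and 34.2 in the EGFP libraries, 31.2 and 31.3 with CCNY-WT and 34.3 and 29.01 with CCNY-shRNA. Cacna1i had 23.8 and 24.7 in the EGFP libraries, 22.2 and 21.5 with CCNY-WT and 25.2 and 22.2 with CCNY-shRNA. Cacna1g made up 23.1 ± 0.0353% (SD, n = 2) of the summed FPKM of the T-type genes in EGFP, against 22.1 ± 0.166% with CCNY-WT and 18.2 ± 0.706% with CCNY-shRNA. Whether the change of Cacna1g differed from those of Cacna1h and Cacna1i was not tested.

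The P/Q-, N- and R-type alpha1 subunits are the main calcium channels of nerve terminals, and 0 of the 3 genes passed limma's test in either condition, adjusted or at an unadjusted p under 0.05. At the unadjusted threshold, 9.36% of all genes tested were lower and 9.2% higher in CCNY-shRNA, against 3% and 3.83% in CCNY-WT. The N-type gene Cacna1b had 43.9 and 43.2 in the EGFP libraries, 40.5 and 37.9 with CCNY-WT and 41.7 and 36.99 with CCNY-shRNA, a log2 change of -0.15 in CCNY-shRNA (standard error 0.0770) and of -0.15 in CCNY-WT. The P/Q-type gene Cacna1a had 34.3 and 37.8 in the EGFP libraries, 34.1 and 32.2 with CCNY-WT and 34.2 and 30.9 with CCNY-shRNA. For both genes, the 2 libraries of each condition lay below both EGFP libraries. The same held for 9 of the channel genes tested, these genes included, and for 10.7% of all genes tested. The R-type gene Cacna1e had 18.8 and 18.5 in the EGFP libraries, 19.1 and 14.4 with CCNY-WT and 17.8 and 15.1 with CCNY-shRNA, with replicates of CCNY-WT further apart than the conditions. Cacna1b stood at 44.3 ± 1.26%, 44.04 ± 1.14% and 44.6 ± 0.0275% (SD, n = 2) of the summed FPKM in EGFP, CCNY-WT and CCNY-shRNA. The L-type genes, which couple calcium entry to transcription, were led by Cacna1c with 21.9 and 23.1 in the EGFP libraries, 21.01 and 18.98 with CCNY-WT and 21.8 and 20.9 with CCNY-shRNA. Cacna1d had 10.1 and 9.66 in the EGFP libraries, 10.1 and 8.44 with CCNY-WT and 11.7 and 9.33 with CCNY-shRNA, and its groups overlapped. Neither L-type gene passed (limma adjusted p = 0.685 and 0.828 in CCNY-shRNA and 0.761 and 0.929 in CCNY-WT for Cacna1c and Cacna1d).

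The calcium channel beta subunits bind the alpha1 subunit inside the cell and carry it to the membrane. Cacnb1 had 69.7 and 67.9 in the EGFP libraries, 67.8 and 67.3 with CCNY-WT and 71.5 and 70.4 with CCNY-shRNA. Cacnb3 had 68.3 and 66.4 in the EGFP libraries, 62.5 and 64.2 with CCNY-WT and 61.3 and 64.6 with CCNY-shRNA. These genes had log2 changes of 0.044 and -0.098 in CCNY-shRNA and standard errors of 0.0526 and 0.0572. Cacnb2 had 19.7 and 20.7 in the EGFP libraries, 19.7 and 16.96 with CCNY-WT and 20.6 and 20.9 with CCNY-shRNA. Cacnb4 had 19.6 and 17.4 in the EGFP libraries, 19.2 and 20.6 with CCNY-WT and 17.7 and 18.6 with CCNY-shRNA. In limma's test, 0 of the 4 genes passed in any of the 3 comparisons, adjusted or at an unadjusted p under 0.05, a threshold that 9.36% (lower) and 9.2% (higher) of all genes passed in CCNY-shRNA. Their summed FPKM was 177 and 172 in the EGFP libraries, 169 and 169 with CCNY-WT and 171 and 175 with CCNY-shRNA, so that the CCNY-shRNA and EGFP libraries overlapped.

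Of the gamma subunits left after the rule, Cacng7 and Cacng4 were well expressed. Cacng4, a regulator of AMPA receptors, had 34.9 and 36.2 in the EGFP libraries, 32.4 and 34.1 with CCNY-WT and 31.3 and 30.6 with CCNY-shRNA, and its change in CCNY-shRNA did not pass (log2 change -0.20 with a standard error of 0.0668 and an adjusted p = 0.174 in limma). Cacng7 had 103 and 122 in the EGFP libraries, 119.8 and 106 with CCNY-WT and 116 and 120.1 with CCNY-shRNA, with the EGFP replicates further apart than the means of the conditions. Cacng5 had the largest fitted changes of all 25 genes but also the largest standard error. Its FPKM was 1.74 and 3.99 in the EGFP libraries, 3.53 and 5.30 with CCNY-WT and 6.40 and 4.27 with CCNY-shRNA, so the replicates differed most within EGFP, and neither change passed (log2 change 0.71 in CCNY-WT, limma adjusted p = 0.782, and 0.99 in CCNY-shRNA, adjusted p = 0.238, standard error 0.396 for both). Leaving out 1 library at a time moved the log2 change in CCNY-shRNA from 0.39 without EGFP replicate 1 to 1.58 without EGFP replicate 2.

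**Figure D4:**
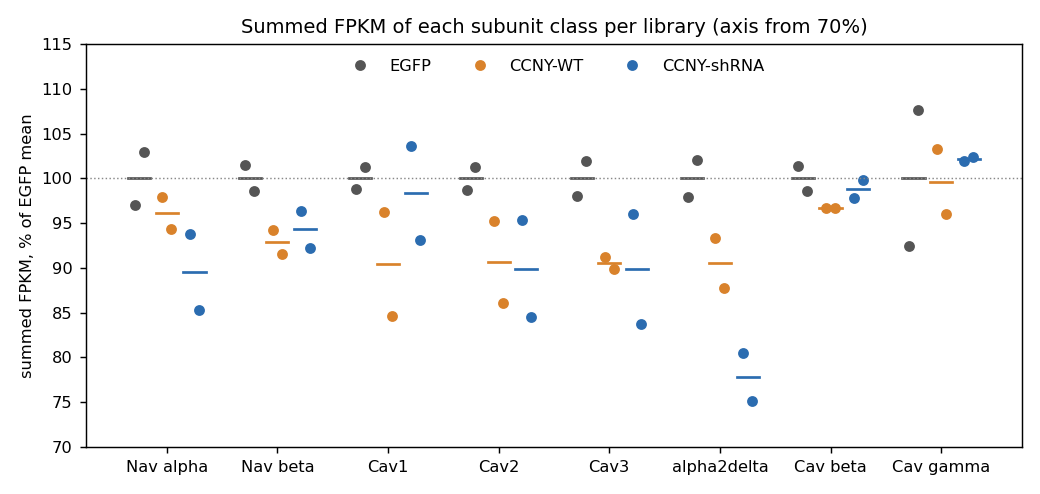
Summed FPKM of each subunit class as a percentage of its EGFP mean (y axis, from 70%) for 8 classes of genes described (Nav, sodium channels; Cav1, L-type; Cav2, P/Q-, N- and R-type; Cav3, T-type); points are libraries and lines the mean of 2. The alpha2delta class in CCNY-shRNA is lowest, at 80.5% and 75.1%, and the beta subunits of calcium channels in CCNY-shRNA are at 97.8% and 99.8%.

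Between CCNY-shRNA and CCNY-WT directly, 0 channel genes passed limma's adjusted threshold, where 0.216% of all genes tested passed. Cacna2d3 came closest (log2 change -0.39, standard error 0.0599, limma adjusted p = 0.0629). Scn3b had a smaller change (-0.22, adjusted p = 0.183). At an unadjusted p under 0.05, Cacna2d3, Scn3b and Cacna1g were lower in CCNY-shRNA than in CCNY-WT and Scn2b was higher, against 7.12% and 5.05% of all genes tested. The pore-forming genes apart from Cacna1g had log2 differences from -0.14 to 0.17, and 0 of these 12 genes had an unadjusted p under 0.05.

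The pore-forming genes differed between replicates of CCNY-shRNA in 1 direction. All 13 tested were lower in CCNY-shRNA replicate 2 than in replicate 1, with a median log2 difference of -0.17, where 50.4% of all genes tested were lower. In CCNY-WT, 10 of the 13 were lower in replicate 2 (median -0.082), and in EGFP 3 of the 13 were (median 0.060). The median log2 change of the 13 genes from EGFP was -0.11 in CCNY-shRNA, smaller in size than the gap between its replicates, and -0.10 in CCNY-WT. Cacna2d3 differed little between the replicates of CCNY-shRNA, at 48.02 and 48.2.

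Genes that act with these channels were described from 3 lists. The lists were chosen with earlier results of these data known, so setting their counts beside the shares of all genes is no test. Of 15 listed partners of sodium channels, such as the ankyrin Ank3, neurofascin and fibroblast growth factor homologous factors, 1 fell and 0 rose in CCNY-shRNA, where 0.579% of all genes tested fell and 0.167% rose. This was Gpd1l, an enzyme of glycerol metabolism, with 49.96 and 42.01 in the EGFP libraries, 45.7 and 40.1 with CCNY-WT and 17.03 and 20.5 with CCNY-shRNA (log2 change -1.29 with a standard error of 0.121 and an adjusted p = 0.0112 in limma), which was also lower in CCNY-shRNA than in CCNY-WT (log2 change -1.20, adjusted p = 0.0139). At an unadjusted p under 0.05, 5 of the 15 were lower (Gpd1l, Nrcam, Nedd4l, Cntn1 and Nedd4) and 0 higher, against 9.36% and 9.2% of all genes tested. The median log2 change of the 15 genes was -0.058 in CCNY-shRNA and -0.091 in CCNY-WT. Of 18 tested partners of calcium channels, 0 passed limma's adjusted threshold in CCNY-shRNA, while 3 were higher and 1 lower at an unadjusted p under 0.05, beside the same shares of all genes. Those higher were Ncs1, Calm3 and Rem2, with log2 changes of 0.24, 0.31 and 0.25 and limma adjusted p-values of 0.0829, 0.0992 and 0.144. Cachd1 was the one lower (-0.27, limma adjusted p = 0.157). Their median log2 changes in CCNY-shRNA and CCNY-WT were 0.077 and -0.013. Of 15 tested genes of calcium extrusion and calcium stores, 0 passed limma's adjusted threshold in CCNY-shRNA, while 9 were lower and 0 higher at an unadjusted p under 0.05, against 9.36% and 9.2% of all genes tested, with a median log2 change of -0.23. The median of these extrusion and store genes in CCNY-WT was -0.11. Over the 3 lists, with 15, 18 and 15 genes tested, 0 passed limma's adjusted threshold in CCNY-WT. At an unadjusted p under 0.05, 1 was higher and 2 were lower, against 3.83% and 3% of all genes. The smallest p-values were those of Calm3 (log2 change 0.22, limma adjusted p = 0.725), Slc8a1 (-0.18, adjusted p = 0.725) and Atp2b3 (-0.16, adjusted p = 0.729).

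Among the 9 genes of extrusion and stores at an unadjusted p under 0.05, the smallest p-values were those of Atp2b2, Atp2a2 and Atp2b1. Atp2b1 and Atp2b2 are plasma membrane calcium pumps, which expel the calcium that the channels admit, and Atp2a2 pumps calcium into the endoplasmic reticulum. Atp2b1 had 172 and 179 in the EGFP libraries, 169 and 151 with CCNY-WT and 144 and 137 with CCNY-shRNA (log2 change -0.32, limma adjusted p = 0.0792). Atp2b2 had 88.8 and 97.5 in the EGFP libraries, 87.2 and 83.6 with CCNY-WT and 76.1 and 70.5 with CCNY-shRNA (-0.35, adjusted p = 0.0704). For both pumps, and for Atp2a2, the CCNY-shRNA libraries lay below the other 4. Both CCNY-shRNA libraries lay below both EGFP libraries in 24.5% of all genes tested, while the share below all 4 others was not counted. Atp2a2 had 264 and 276 in the EGFP libraries, 259 and 253 with CCNY-WT and 229 and 224 with CCNY-shRNA (log2 change -0.25, limma adjusted p = 0.0768). The other plasma membrane pumps, Atp2b3 and Atp2b4, are named after their values were seen and had log2 changes of -0.30 and -0.46, with adjusted p-values of 0.0863 and 0.150.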

How the data were processed

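RNA-seq was measured in 6 libraries, 2 per condition. The authors deposited 1 FPKM value per gene and library, made by mapping the reads to rn4 with TopHat 2 and by Cufflinks (2.2.1 in the submitters' processing notes, with Bowtie2 2.1.0 and SAMtools 0.1.19). Which annotation was used, and whether libraries were scaled to each other, is not given in the sources used here. Here, values under 1 FPKM were set to 1 before taking log2. The 10188 genes that reached 1 FPKM in at least 2 libraries were tested with limma 3.58.1 in R 4.3.3 (lmFit, contrasts.fit and eBayes, trended prior), with the 6 libraries in 1 fit. P-values are two-sided and adjusted by the Benjamini-Hochberg method over all genes tested, with a threshold of 0.05. A fold change on this scale understates the change of genes near the floor. Size criteria of 0.3 and 0.33 follow the study's methods.

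Fragment numbers of low genes were read from the steps in their FPKM, which fitted whole numbers, to within 0.02 of a fragment or 0.4% of the number if larger, in 96.9% of 772 genes under an FPKM of 0.3. All 34 channel genes described matched RefSeq symbols and 23 a RefSeq promoter (build GRCr8, used for names and sequences only). The values of 2 genes of the rule are not reported here and entered no count of channel genes or class sum. The channel genes, partner lists and marker lists were chosen with earlier results of these data known. Genes named are all described members of the channel rule and, from the partner lists, those past the adjusted threshold and otherwise the 3 smallest p-values, taken within a list in CCNY-shRNA and over the 3 lists in CCNY-WT. Other partners were named after their values were seen. Alternatives covered the offset, the filter, the scaling, the spread, the libraries in the fit, a replicate block and leaving out each library. The study's own selection of changed genes with cuffdiff was not used. Tables were handled with Python 3.11.15 and pandas 2.3.3, and figures drawn with matplotlib 3.10.9.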

Additional observations from a re-analysis of the deposited data

How the results depend on the processing

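The 2 calls in CCNY-shRNA against EGFP became 1 (Cacna2d3) after scaling to one upper quartile. They became 0 without a filter on low values, without a trend in eBayes, or with only the 4 libraries compared. In these 3 settings 2, 1 and 1 of all genes tested passed. Calls were also lost in fits with 1 library left out, which leave 1 library in a group. The adjusted p in CCNY-shRNA ranged from 0.0147 to 0.189 for Cacna2d3 and from 0.0435 to 0.283 for Scn3b over 15 alternatives, and both log2 changes stayed below 0 in all of them. With log2(FPKM + 0.1), 4 genes passed the size criterion in CCNY-WT, against 1, and 5 in CCNY-shRNA, against 3, the added genes (Cacng1, Cacng6 and Scn11a, and Scn4b and Scn11a) being among the 9 not tested. Leaving out 1 library gave from 0 to 2 and from 3 to 5. The median log2 change of the channel genes in CCNY-shRNA against EGFP was -0.033 without a filter, where genes under the floor enter with a change of 0. In CCNY-shRNA against CCNY-WT it ranged from -0.099 to 0.039 with 1 library left out.

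Over all genes tested, same-numbered libraries deviated together only weakly (correlations of deviations between groups from 0.0377 to 0.0538), so the numbers are not taken as pairs. Such a value over all genes cannot show whether a smaller set of genes deviated together. Of the 13 pore-forming genes, 13 were lower in replicate 2 in CCNY-shRNA, 10 in CCNY-WT and 3 in EGFP. With the replicate block, 1 channel gene (Cacna2d3) passed in CCNY-shRNA (Scn3b had an adjusted p of 0.0676), and 39 of all genes did, against 76. The number of reads is unknown, so no limit set by depth is given.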
